A study of Mus musculus with 4 samples.

Results

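The interferon regulatory factors (IRFs) are a family of transcription factors, and 8 of their genes (*Irf1*, *Irf2*, *Irf3*, *Irf4*, *Irf5*, *Irf7*, *Irf8* and *Irf9*) were taken by symbol from the 23337 genes of the count table and of the TPM tables (a level scaled for transcript length and depth). All 8 were in the tables and all 8 passed the filter on low counts, among 18547 genes tested. RNA came from medullary thymic epithelial cells (mTECs), the cells of the thymic medulla that display self antigens to developing T cells, in 4 libraries of C57BL/6 mice aged 4 weeks. The 2 WT libraries came from mice negative for *Foxn1*-Cre, and the 2 libraries labelled Sirt6-/- came from *Foxn1*-Cre mice with both *Sirt6* alleles floxed, in which the recombinase is driven in thymic epithelium. The latter are called *Sirt6* cKO here, as in the study. The cells were sorted as CD45-EPCAM+UEA-1+Ly51-, and the study describes the 2 libraries of each group as independent samples without giving the number of mice behind each.

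Every IRF protein binds DNA through an N-terminal domain with conserved tryptophans that reads GAAA repeats. IRF1 activates and IRF2 mostly competes at the same sites, IRF3, IRF5 and IRF7 are switched on by kinases downstream of receptors for microbial nucleic acids, and IRF9 is the DNA-binding part of the complex ISGF3 that answers type I and type III interferon. IRF4 and IRF8 are best known from lymphocytes, dendritic cells and macrophages, where they bind weakly alone and pair with Ets factors such as PU.1 and SPIB or with AP-1 factors such as BATF. In mTECs, NF-κB signals from RANK and CD40 drive maturation, and *Irf4* and *Irf5* are known NF-κB responsive genes in other cells.

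The promoter sequences are shown first for the 4 members that were higher in *Sirt6* cKO (*Irf2*, *Irf4*, *Irf5* and *Irf8*) and for *Irf1*, whose level did not differ detectably, because they show which of these genes carry interferon or NF-κB type sites next to the start of transcription. They are the 250 bases before the RefSeq start site on GRCm38.p6, 5′ to 3′ on the strand of the gene, which is the plus strand for all 5. For *Irf1* and *Irf8*, with 2 such start sites each, the upstream one is shown. Capitals mark matches to any of 5 motifs on either strand: the interferon response core (GAAA, any 2 bases, GAAA), the Ets-IRF composite element (GGAA, any 2 bases, GAAA), the gamma-activated site TTCNNNGAA, the κB consensus and the AP-1 site TGANTCA.

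*Irf2*, chr8:46739495-46739744: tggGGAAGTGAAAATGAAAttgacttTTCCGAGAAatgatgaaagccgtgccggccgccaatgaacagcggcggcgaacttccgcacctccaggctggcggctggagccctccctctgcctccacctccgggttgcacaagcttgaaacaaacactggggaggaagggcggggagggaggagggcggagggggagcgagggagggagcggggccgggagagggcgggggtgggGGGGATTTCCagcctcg
*Irf4*, chr13:30748983-30749232: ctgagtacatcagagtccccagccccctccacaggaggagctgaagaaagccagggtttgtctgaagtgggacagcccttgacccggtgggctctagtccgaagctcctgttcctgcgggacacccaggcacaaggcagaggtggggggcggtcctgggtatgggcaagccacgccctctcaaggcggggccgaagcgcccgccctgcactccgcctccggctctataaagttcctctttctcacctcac
*Irf5*, chr6:29526375-29526624: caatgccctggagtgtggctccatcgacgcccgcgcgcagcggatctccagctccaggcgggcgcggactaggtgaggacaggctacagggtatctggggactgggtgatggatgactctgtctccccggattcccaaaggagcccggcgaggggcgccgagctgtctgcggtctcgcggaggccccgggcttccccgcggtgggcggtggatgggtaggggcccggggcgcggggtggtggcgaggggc
*Irf8*, chr8:120736108-120736357: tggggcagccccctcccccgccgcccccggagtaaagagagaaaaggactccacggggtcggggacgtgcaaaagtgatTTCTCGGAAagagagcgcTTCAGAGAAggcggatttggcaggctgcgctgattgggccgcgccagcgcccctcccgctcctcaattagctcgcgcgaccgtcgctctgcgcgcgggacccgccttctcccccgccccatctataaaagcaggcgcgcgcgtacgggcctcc
*Irf1*, chr11:53769764-53770013: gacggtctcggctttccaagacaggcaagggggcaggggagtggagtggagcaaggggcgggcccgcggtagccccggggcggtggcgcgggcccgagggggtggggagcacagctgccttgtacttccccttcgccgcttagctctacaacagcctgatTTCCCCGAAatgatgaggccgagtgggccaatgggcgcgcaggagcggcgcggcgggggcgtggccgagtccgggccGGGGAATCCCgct

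On GRCm38 the annotation places *Irf1* at chr11:53770014-53778374, *Irf2* at chr8:46739732-46847458, *Irf3* at chr7:44997648-45002848, *Irf4* at chr13:30749226-30766976, *Irf5* at chr6:29526625-29541871, *Irf8* at chr8:120736358-120756694 and *Irf9* at chr14:55603571-55610030, all on the plus strand, and *Irf7* at chr7:141262706-141266481 on the minus strand. RefSeq gave 11 windows for the 8 members, each reaching 50 bases past the start site, and motifs were searched over the whole 300 bases. The *Irf2* window held an Ets-IRF composite match (GGAAGTGAAA) that overlaps an interferon response core (GAAAATGAAA), a gamma-activated site (TTCCGAGAA) and a κB match (GGGGATTTCC). The upstream window of *Irf1* held a gamma-activated site (TTCCCCGAA) and a κB match (GGGGAATCCC), and the upstream window of *Irf8* held 2 gamma-activated sites (TTCTCGGAA and TTCAGAGAA). The other window of each of these genes held no match. No match was found in the windows of *Irf3*, *Irf4*, *Irf5*, *Irf7* and *Irf9*. Over 32851 promoter windows of this length, the interferon core was found in 3.44%, the composite element in 2.72%, the gamma-activated site in 8.3%, the κB consensus in 4.51% and the AP-1 site in 7.81%. A match describes letters only, and a window without a match says nothing about sites farther away.

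The targeted gene comes first, although a gene total need not fall when floxed exons are removed and so does not check the labels. *Sirt6* was counted 622 and 755 times in the WT pair and 882 and 835 times in the pair labelled *Sirt6* cKO, so it was not lower there (log2 fold change 0.37, standard error (SE) 0.32), and every direction given below rests on the labels. Totals ran from 61102704 to 65907745 counts per library, and *Irf7*, the lowest member, still had between 615 and 1378 counts. All 10 mTEC markers listed were detected, with *Epcam* between 798 and 1201 TPM and *Aire* between 395 and 754 TPM. *Ptprc*, which encodes the CD45 that the sort selects against, lay between 106 and 177 TPM over the 4 libraries. Whether this RNA came from other cell types or from mTECs was not tested. In bulk RNA, fewer cells of a type and less RNA per cell cannot be told apart.

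The 8 IRF genes summed to 1379 and 1386 TPM in the WT pair and to 1586 and 1644 TPM in the *Sirt6* cKO pair. *Irf1* and *Irf8* made up most of that sum, between 67.3% and 71.2% in each library. In WT, *Irf1* (484 ± 64 TPM; SD, n = 2) and *Irf8* (484 ± 45 TPM; SD, n = 2) stood level with overlapping libraries, at the 98.8th percentile of all genes. *Irf9* followed at 169 TPM, clear of its neighbours in the order. *Irf5* (62 TPM), *Irf3* (61.1 TPM) and *Irf4* (57.6 TPM) overlapped one another, and *Irf2* (39.8 TPM) and *Irf7* (25.1 TPM) closed the order. In *Sirt6* cKO the order changed: *Irf8* (632 ± 45.1 TPM; SD, n = 2) lay above *Irf1* (482 ± 19.9 TPM; SD, n = 2) in both libraries, and *Irf5* (118 TPM), *Irf4* (114 TPM) and *Irf2* (66.6 TPM) lay above *Irf3* (45.7 TPM).

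**Figure D1:**
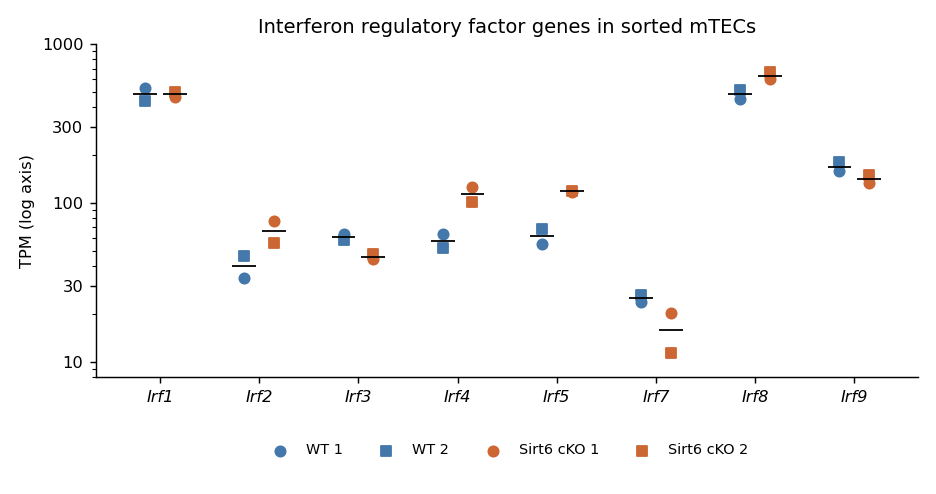
TPM (log axis) of the 8 interferon regulatory factor genes in each of the 4 libraries, with WT in blue and *Sirt6* cKO in orange, circles for replicate 1, squares for replicate 2 and bars for group means. The *Sirt6* cKO points lie above both WT points for *Irf2*, *Irf4*, *Irf5* and *Irf8*, below them for *Irf3*, *Irf7* and *Irf9*, and between them for *Irf1*.

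The design asks which genes differ between *Sirt6* cKO and WT, tested here by edgeR's quasi-likelihood method on the counts. *Irf2*, *Irf4*, *Irf5* and *Irf8* rose at an unadjusted p of 0.05, the threshold the study applied in its heatmaps, and 0 of the 8 members fell. Over all 18547 genes tested, 5.27% rose and 3.32% fell by this rule, so that 61.4% of the calls were higher, a share that was 48.4% under upper quartile scaling and 46.2% under scaling by library size only. At an adjusted p of 0.05 in edgeR 0 members passed, against 4 at the unadjusted p, and 1 gene in all did, 0.00539% higher and 0% lower. DESeq2, the tool of the study, gave 2 of the 8 members, *Irf4* and *Irf5*, an adjusted p under 0.05, against 1.03% of genes higher and 0.795% lower. The methods of the study also ask for a fold change above 2, which neither reached (DESeq2 log2 fold changes 0.97 and 0.89). The groups did not overlap in CPM (counts scaled to library size with TMM factors) in 7 of the 8 members, 4 higher and 3 lower, while 21.6% of all genes tested were higher and 20.3% lower without overlap. The median log2 fold change of the 8 was 0.20, beside -0.0047 over all genes tested. A gene list that the study made from these same libraries holds *Irf2*, *Irf4* and *Irf5*, so their direction here is no independent evidence. An exact permutation test of 2 libraries against 2 cannot go below p = 0.333, and all p-values measure only the spread between these libraries, which may be technical in part.

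*Irf4*, which in B cells and T cells directs plasma cell and effector programs, was counted 8990 and 6909 times in WT 1 and 2, and 16324 and 13873 times in *Sirt6* cKO 1 and 2. It rose 1.98-fold, from 123 ± 20.3 CPM to 243 ± 38.3 CPM (SD, n = 2 each) for a log2 fold change of 0.99 (SE 0.22, unadjusted p = 0.0051, adjusted p = 0.54 in edgeR). Both *Sirt6* cKO libraries stood above both WT libraries by more than the replicates of either group differed. DESeq2 gave an adjusted p of 0.0187. *Irf4* passed the unadjusted p under all 12 alternatives run, with log2 fold changes between 0.82 and 1.14.

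*Irf5*, a factor for inflammatory cytokine genes downstream of MyD88, was counted 3730 and 4403 times in the WT pair and 7118 and 7594 times in the *Sirt6* cKO pair. It rose 1.87-fold, from 63.1 ± 8.63 CPM to 118 ± 0.327 CPM (SD, n = 2 each) for a log2 fold change of 0.91 (SE 0.21, unadjusted p = 0.00604, adjusted p = 0.54 in edgeR). The *Sirt6* cKO libraries nearly coincided and the groups were far apart. DESeq2 gave an adjusted p of 0.0267, and *Irf5* too passed the unadjusted p under all 12 alternatives, between 0.75 and 1.05 on the log2 scale. Exons of *Irf5* and of *Tnpo3*, a nuclear import gene on the other strand, overlap by 411 bases, which are 14.1% of the exonic bases of *Irf5*. Without a stated strand setting these reads cannot be told apart, and for *Tnpo3* itself the log2 fold change was -0.064 (SE 0.19).

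*Irf2*, the competitor of IRF1, was counted 2527 and 3260 times in WT 1 and 2, and 5311 and 4069 times in *Sirt6* cKO 1 and 2. It rose from 44.9 ± 8.92 CPM to 75.7 ± 17.4 CPM (SD, n = 2 each) for a log2 fold change of 0.75 (SE 0.28, unadjusted p = 0.0408, adjusted p = 0.56 in edgeR). The groups did not overlap, but WT 2 and *Sirt6* cKO 2 lay close together at 51.2 and 63.4 CPM. The call rested on the other libraries: without WT 1 the log2 fold change was 0.54 (unadjusted p = 0.175) and without *Sirt6* cKO 1 it was 0.50 (unadjusted p = 0.211), from edgeR fits in which the lone library of a group is assumed to vary like the other group. The call was also lost with upper quartile normalization (unadjusted p = 0.054 in edgeR) and with library size alone (unadjusted p = 0.0632), and the DESeq2 adjusted p was 0.293.

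*Irf8*, the factor of dendritic cell and macrophage lineages, was the most abundant member in *Sirt6* cKO, counted 38571 and 41579 times in the WT pair and 46994 and 54891 times in the *Sirt6* cKO pair. It rose 1.32-fold, from 621 ± 45.3 CPM to 817 ± 54.6 CPM (SD, n = 2 each) for a log2 fold change of 0.40 (SE 0.15, unadjusted p = 0.0425, adjusted p = 0.56 in edgeR). The libraries did not overlap, and the step was smaller than for *Irf4* or *Irf5*. The call was the least firm of the 4: 1 of 12 alternatives kept it, with p between 0.045 and 0.241, and leaving out any of the 4 libraries ended it. With upper quartile normalization the log2 fold change was 0.32 and with library size alone it was 0.31.

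*Irf1*, the activator that responds to interferon gamma and raises the antigen presentation machinery, was counted 33924 and 26543 times in the WT pair and 27684 and 30977 times in the *Sirt6* cKO pair. Both *Sirt6* cKO values fell between the WT values, at 459 and 483 CPM against 518 and 417 CPM. The log2 fold change was 0.0096 (SE 0.17) and turned negative under 7 of the 12 alternatives, from -0.14 to 0.15 over all of them, so no difference was detectable.

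*Irf3*, *Irf9* and *Irf7* had lower values without passing the test. They are grouped here by direction and not by role. *Irf3*, the factor that TBK1 activates first, stood at 61.4 and 55 CPM in WT and 42.3 and 45 CPM in *Sirt6* cKO for a log2 fold change of -0.41 (SE 0.22, unadjusted p = 0.117, adjusted p = 0.67 in edgeR). *Irf9*, the DNA-binding subunit of ISGF3, stood at 185 and 201 CPM in WT and 153 and 168 CPM in *Sirt6* cKO for a log2 fold change of -0.27 (SE 0.17, unadjusted p = 0.175, adjusted p = 0.72 in edgeR). *Irf7*, the factor that amplifies interferon alpha, was counted 1297 and 1378 times in the WT pair, 1037 times in *Sirt6* cKO 1 and 615 times in *Sirt6* cKO 2 for a log2 fold change of -0.63 (SE 0.38, unadjusted p = 0.154, adjusted p = 0.71 in edgeR). For all 3 genes both *Sirt6* cKO libraries lay below both WT libraries, and *Irf7* was set by *Sirt6* cKO 2, since without it the log2 fold change was -0.29. Exons of *Irf3* overlap those of *Bcl2l12* by 88 bases, and those of *Irf7* overlap *Phrf1* by 45, in both cases on the other strand. *Bcl2l12* was itself lower in both *Sirt6* cKO libraries (log2 fold change -0.68, SE 0.31, unadjusted p = 0.0751 in edgeR), and *Phrf1* was higher (0.70, SE 0.20). *Irf9* shares 123 exonic bases with *Rnf31* on its own strand and 2.78% of the 50-base words of its longest coding transcript with other genes, and the other 7 members share 0%.

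**Figure D2:**
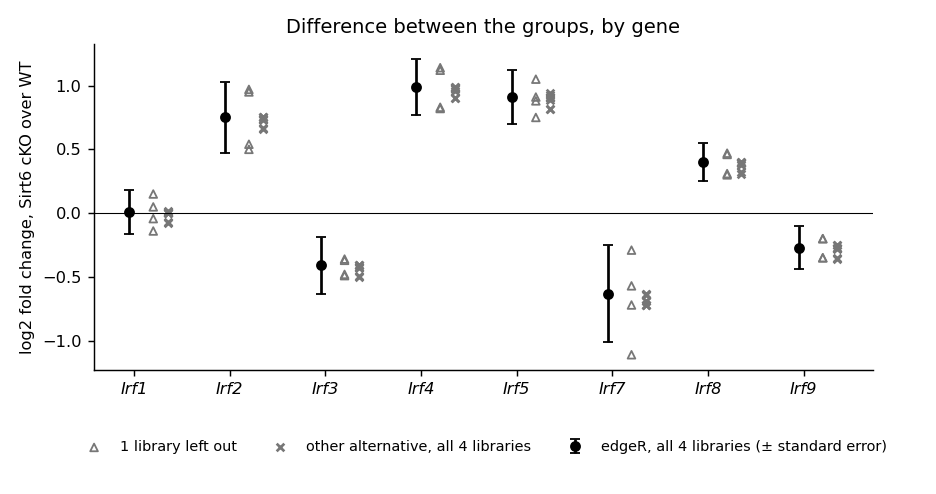
Log2 fold change of *Sirt6* cKO over WT for each of the 8 genes, with black points and SE bars for edgeR on all 4 libraries, triangles for fits with 1 library left out and crosses for the other alternatives. *Irf4* and *Irf5* stay between 0.75 and 1.14 in every fit, *Irf1* straddles 0, and *Irf3*, *Irf7* and *Irf9* stay below 0.

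Ratios of pairs of members within a library do not depend on how libraries are scaled to each other, and 4 pairs were chosen after their values were seen. *Irf4* stood at 40.4% and 28.7% of the TPM of *Irf9* in the WT libraries and at 94.2% and 67.6% in the *Sirt6* cKO libraries. *Irf5* stood at 86.2% and 118% of *Irf3* in WT and at 266% and 250% in *Sirt6* cKO. Both ratios separated the groups by more than the replicates differed, but only just for *Irf4* over *Irf9*. Outside the 4 pairs, *Irf4* stood at 14.1% and 10% of *Irf8* in WT and at 21% and 15.3% in *Sirt6* cKO. That gap between the groups was smaller than the difference between replicates. *Irf2* stood at 6.36% and 10.5% of *Irf1* in WT and at 16.5% and 11.3% in *Sirt6* cKO, so WT 2 and *Sirt6* cKO 2 were nearly equal. *Irf8* stood at 85.3% and 117% of *Irf1* in WT and at 128% and 134% in *Sirt6* cKO. As shares of the summed TPM of the 8 genes, *Irf4* and *Irf5* together held 8.61% and 8.7% in WT and 15.3% and 13.4% in *Sirt6* cKO, while *Irf3*, *Irf7* and *Irf9* together held 17.8% and 19.1% in WT and 12.5% and 12.7% in *Sirt6* cKO. Both sets were grouped by the direction of their values.

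**Figure D3:**
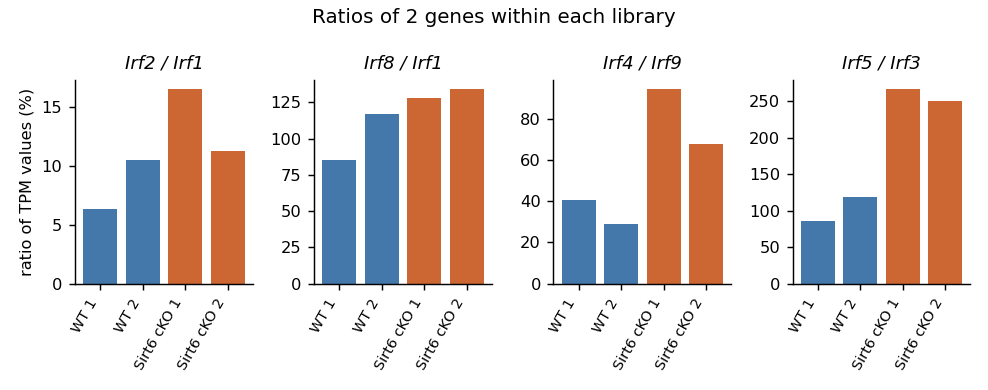
Ratio of the TPM values of 2 genes (%), 1 panel per pair and 1 bar per library, WT in blue and *Sirt6* cKO in orange, each axis starting at 0. *Irf4* relative to *Irf9* and *Irf5* relative to *Irf3* are higher in both *Sirt6* cKO libraries, with a wide gap for the latter but not the former. *Irf2* relative to *Irf1* differs little between WT 2 and *Sirt6* cKO 2.

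Across the 4 libraries, the members fell into profiles that were compared as log2 CPM minus the mean of each gene, by the root mean square difference. The nearest pair was *Irf3* and *Irf9* (0.124), followed by *Irf2* and *Irf5* (0.193), and the farthest was *Irf4* and *Irf7* (0.873). *Irf4* and *Irf5* lay 0.25 apart, since *Irf4* was higher in replicate 1 of each group and *Irf5* was not. Among 16027 other genes with a mean of 1 CPM or more, the nearest to *Irf4* were *Eny2* (0.0477), *Zfp316* (0.0482) and *Itpr3* (0.0523), and the nearest to *Irf5* were *Sdr9c7* (0.0221), *Npm2* (0.0241) and *Gm14137* (0.0268). The nearest to *Irf2* were *Ambra1* (0.0173), *Tob1* (0.0321) and *Atp6v0a1* (0.0371), and those to *Irf8* were *C330013E15Rik* (0.016), *Tmem125* (0.0183) and *Tor1b* (0.0199). The nearest to *Irf3* were *Chl1* (0.0118), *Dbn1* (0.0137) and *Gsk3b* (0.0138), those to *Irf7* were *Mtrf1* (0.0283), *Klk1b5* (0.03) and *Mterfd3* (0.0344), and those to *Irf9* were *Napa* (0.00762), *Rab40c* (0.0152) and *Ttc13* (0.0155). With 4 libraries many genes come this close.

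The genes around the IRFs were taken as 8 lists by role, which together hold 139 genes of the table, 128 of them tested. Of these, 9 rose (7.03%) and 6 fell (4.69%) at the unadjusted p, beside the 5.27% and 3.32% of all genes, and their median log2 fold change was -0.084. The balance moved with the scaling: upper quartile normalization gave 4 higher and 10 lower, and library size alone gave 5 higher and 10 lower. The counts of each list below, cell type lists included, stand beside the same 5.27% and 3.32% of all genes, and most rest on few genes.

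Interferon genes encode the ligands at the top of the pathway, and type I interferon genes reached 3.09 TPM at most. *Il28a* (35.1 and 44.3 TPM in the WT pair), *Il28b* (33.9 and 26.1 TPM) and *Ifng* (21.6 and 10.5 TPM) were higher than that. Of 15 listed, 4 had 0 TPM in every library, 8 (these 4 included) stayed under 1 TPM in every library, and 5 were tested. *Ifnb1* was counted 30 and 0 times in the WT pair and 10 and 6 times in the *Sirt6* cKO pair, too few to place the groups. *Ifng* was counted 788 and 361 times in the WT pair and 309 and 326 times in the other (log2 fold change -0.80, SE 0.49). The type III interferon listed as *Il28a* fell from 616 and 735 counts to 233 and 320 (log2 fold change -1.24, SE 0.39, unadjusted p = 0.0218 in edgeR). Its close relative *Il28b*, named after its values were seen, did not pass the test (-0.34, SE 0.44), and how reads were split between these similar genes is unknown.

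Of 11 genes for interferon receptors, JAK kinases and STAT factors, all were tested and 0 passed the unadjusted p in edgeR, with a median log2 fold change of 0.10. *Ifnar1* (0.10, SE 0.21) and *Ifnar2* (0.41, SE 0.26), the subunits of the type I receptor, and *Ifngr1* (-0.20, SE 0.20) and *Ifngr2* (0.33, SE 0.16), those of the interferon gamma receptor, had differences within about 2 SEs. *Stat2*, which encodes a subunit of ISGF3, stood at 0.10 (SE 0.24). Among the sensors, adaptors and kinases that activate IRF3, IRF5 and IRF7, 22 of 24 listed were tested. *Irak4*, a kinase of the MyD88 pathway, rose from 605 and 529 counts to 984 and 1032 (log2 fold change 0.88, SE 0.30, unadjusted p = 0.0309 in edgeR), a call kept by 7 of 12 alternatives and lost when any of the 4 libraries was left out, at 0.81 to 0.94. *Ticam2*, the TLR4 adaptor that leads to IRF3, fell from 726 and 292 counts to 144 and 202 (-1.50, SE 0.59, unadjusted p = 0.0486 in edgeR). This call was kept by 6 of 12 alternatives, and the log2 fold change was -0.75 without WT 1 (unadjusted p = 0.291 in edgeR).

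Among 13 DNA-binding partners and coactivators, 2 rose and 0 fell. *Spib*, the Ets partner of IRF4 and IRF8, rose from 33907 and 32819 counts to 67018 and 74018 for a log2 fold change of 1.13 (SE 0.14, unadjusted p = 0.000294 in edgeR), above the 0.99 of *Irf4*. *Jun*, a subunit of AP-1, rose by 0.38 (SE 0.15, unadjusted p = 0.0451 in edgeR), a call that 4 of 12 alternatives kept and that was lost at 0.24 without WT 1. The Ets partner of macrophages and B cells, PU.1, listed as *Sfpi1*, was counted 3348 and 1550 times in the WT pair and 1451 and 1353 times in the *Sirt6* cKO pair (log2 fold change -0.74, SE 0.41), and *Batf* had 210 or fewer counts in each library (-0.48, SE 0.73). Of 13 tested negative regulators, *Tnfaip3*, the ubiquitin editing inhibitor of NF-κB, rose by 0.47 (SE 0.15, unadjusted p = 0.0242 in edgeR) and 0 fell, and 5 of 12 alternatives kept the call of *Tnfaip3*, which was lost when any of the 4 libraries was left out.

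Of 27 tested genes that ISGF3 and IRF3 are known to activate, 1 rose and 3 fell, and the median log2 fold change was -0.21. *Rtp4* fell from 5321 and 4660 counts to 2360 and 2610 (-0.95, SE 0.22, unadjusted p = 0.00572 in edgeR), and *Ifit3* from 4168 and 3131 counts to 1762 and 1769 (-0.99, SE 0.26, unadjusted p = 0.00997 in edgeR). Both passed under all 12 alternatives and had a DESeq2 adjusted p of 0.0129 and 0.0368. *Ifit2* fell by 0.76 on the log2 scale (SE 0.29), while *Oasl1*, of the same antiviral group, rose by 0.63 (SE 0.21), and the calls were kept by 6 and 7 of 12 alternatives. Without *Sirt6* cKO 1 the log2 fold change of *Ifit2* was -0.47, and without WT 1 that of *Oasl1* was 0.45. The other 23 did not pass the test, with values above 0 for some and below 0 for others.

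Of 23 genes that IRF1 is known to activate, 2 rose, 0 fell and the median was -0.058. *Cd274*, which encodes the checkpoint ligand PD-L1, rose by 0.39 (SE 0.15, unadjusted p = 0.0477 in edgeR), but 0 of 12 alternatives kept that call, and *Nos2*, the inducible nitric oxide synthase, rose by 0.88 (SE 0.35, unadjusted p = 0.0495 in edgeR), which 5 of 12 kept and which fell to 0.53 without WT 1 and 0.49 without *Sirt6* cKO 1. Of 14 genes known to respond to IRF4, IRF5 or IRF8, 2 rose and 1 fell. *Prdm1*, the repressor that IRF4 turns on in plasma cells, rose from 1035 and 412 counts to 2862 and 1613 (1.70, SE 0.55, unadjusted p = 0.0251 in edgeR). The call was kept by 9 of 12 alternatives and lost without WT 2 (1.20) and without *Sirt6* cKO 1 (1.18), while without WT 1 the log2 fold change was 2.46. *Tnf*, which encodes the inflammatory cytokine, rose by 0.93 (SE 0.37, unadjusted p = 0.0494 in edgeR). The call of *Tnf* was kept by 6 of 12 alternatives and lost without WT 2 (0.59) and without *Sirt6* cKO 1 (0.52), while without WT 1 it was 1.36. *Il10*, an anti-inflammatory cytokine gene, fell from 1856 and 1560 counts to 758 and 805 (-1.07, SE 0.28, unadjusted p = 0.0107 in edgeR). The median of the list was -0.13.

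**Figure D4:**
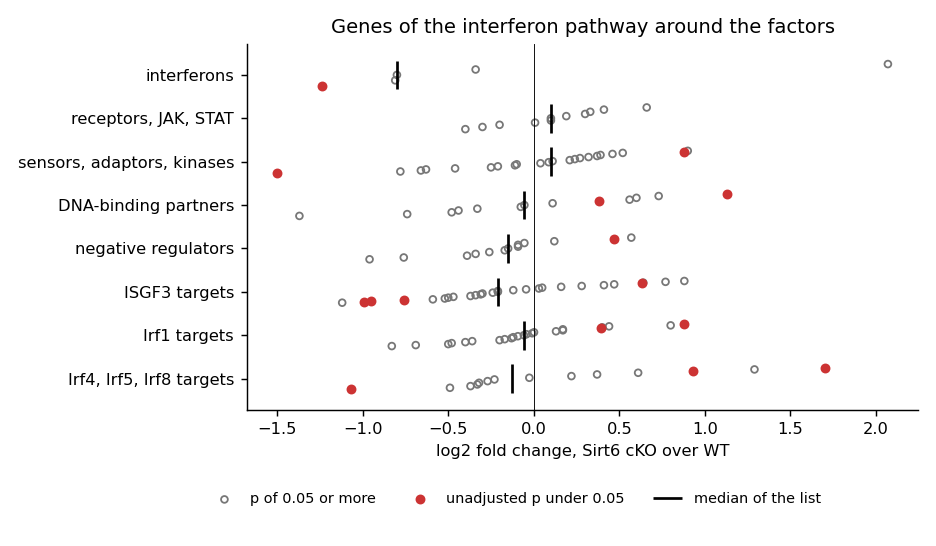
Log2 fold change of *Sirt6* cKO over WT for the tested genes of the 8 lists, 1 circle per gene, filled red where the unadjusted p of edgeR's test was under 0.05, with a bar at the median of each list. Most genes of every list are unfilled and the medians lie between -0.80 for the 5 tested interferon genes and 0.10 for the receptors and for the sensors.

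Because *Irf4*, *Irf5* and *Irf8* are also active in blood cells, marker lists of other cell types were read beside them. The summed TPM of the 10 macrophage markers was 11433 and 6746 in WT and 4136 and 4452 in *Sirt6* cKO, mostly from *Lyz2*, and 1901, 805, 472 and 497 without it. Of these 10 markers 7 fell, *Cd68* by 1.25 on the log2 scale and *C1qc* by 1.93, and 0 rose. Without WT 1 the log2 fold change of *Cd68* was -0.92, and that of *C1qa* moved from -1.46 to -0.64. The B cell list summed to 541 and 451 TPM in WT and 492 and 487 in *Sirt6* cKO, and 0 of its 10 genes passed the test. *Pax5* reached 0.343 TPM at most, while *Cd79b* and *Ms4a1* lay between 20.8 and 109 TPM. The conventional dendritic cell list summed to between 110 and 176 TPM, with 0 of 10 genes past the test, and *Clec9a* and *Xcr1* lay between 1.03 and 4.69 TPM. *Spib* is also a marker of plasmacytoid dendritic cells, and without it that list summed to 616 and 627 TPM in WT and 543 and 419 in *Sirt6* cKO. The thymocyte list summed to between 719 and 1320 TPM, with 0 of 10 genes past the test, and the tuft cell list fell in 6 of 10 genes, from 438 and 449 TPM to 274 and 222. With *Spib* included the plasmacytoid list summed to 1019 and 1040 TPM in the WT pair and to 1411 and 1328 TPM in the *Sirt6* cKO pair. The most abundant genes of the lists were *Blnk* (B cell), *Spib* (plasmacytoid), *Sirpa* (conventional dendritic cell), *Lyz2* (macrophage), *Lck* (thymocyte) and *Lrmp* (tuft cell). Whether the RNA of these markers came from other cells or from mTECs was not tested, nor was the part of such cells in the IRF values.

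Among the 10 mTEC markers, 3 rose and 1 fell, beside 5.27% and 3.32% of all genes tested. *Cd80*, the costimulatory ligand of mature mTECs, rose by 0.94 (unadjusted p = 0.00403 in edgeR), *Aire*, which switches on tissue-restricted antigens, by 0.65 (unadjusted p = 0.0144), and *Epcam* by 0.48 (unadjusted p = 0.0182). The calls of *Cd80*, *Aire* and *Epcam* were kept by 12, 8 and 7 of 12 alternatives, in that order. The log2 fold change of *Aire* was 0.49 without WT 1, and that of *Epcam* was 0.38 without *Sirt6* cKO 2. *Ccl21a*, the chemokine gene of immature mTECs, fell by 2.37 on the log2 scale (SE 0.46, unadjusted p = 0.00292 in edgeR). Its WT libraries lay far apart, at 1258 and 3154 TPM, above 346 and 497 TPM in *Sirt6* cKO. The part of a shift between mTEC subsets in the values of *Irf4*, *Irf5*, *Irf2* and *Irf8* was not tested. Of the remaining lists, the 8 cTEC markers summed to between 1803 and 2155 TPM with 2 higher, and 1 fibroblast or endothelial marker and 1 erythroid marker fell. Their most abundant genes were *Tbata* (cTEC), *Dcn* (fibroblast or endothelial), *Hba-a2* (erythroid) and, among the mTEC markers, *Cldn4*.

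**Figure D5:**
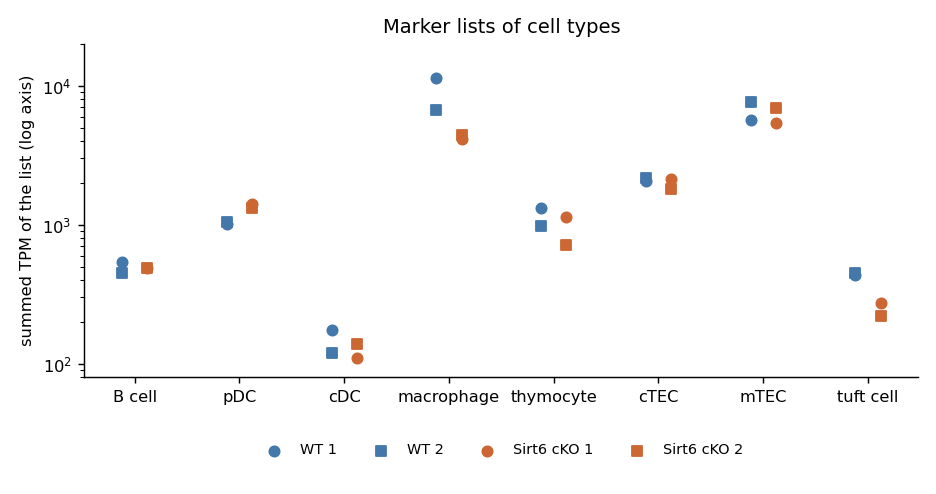
Summed TPM (log axis) of the marker lists of 8 cell types in each library, WT in blue and *Sirt6* cKO in orange, circles for replicate 1 and squares for replicate 2. The macrophage list is lower in both *Sirt6* cKO libraries, at 4136 and 4452 against 11433 and 6746, and the tuft cell list is lower as well, while the B cell, dendritic cell and thymocyte lists overlap between the groups, except that the plasmacytoid list, which includes *Spib*, is higher.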

How the data were processed

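mTECs were measured by RNA-seq in 2 WT and 2 *Sirt6* cKO libraries. Adaptors were removed by the authors with Trim Galore, reads were placed on mm10 by HISAT2 2.1.0 and genes quantified by StringTie 1.3.3 (versions per the submitters' processing notes). They deposited whole-number counts without normalization for 23337 symbols and a TPM table per library. The last line of each TPM table, a column total that names no gene, was left out. The annotation and strand setting are not given in the sources used here. Genes were tested with edgeR 4.0.16 in R 4.3.3 (filterByExpr at its defaults of 10 counts and 15 in total, TMM, glmQLFit, glmQLFTest), with Benjamini-Hochberg adjustment over 18547 genes. The standard error is the log2 fold change over the root of F. Design alternatives were DESeq2 1.42.0, no filter, genes above 0.1 TPM in each library (the cut-off of the study), upper quartile scaling, scaling by library size only, a block for replicate number, limma 3.58.1 on log2(TPM + 1) and log2(TPM + 0.1), which understates changes of low genes, and each library left out in turn.

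The members and lists were chosen with earlier results of these data known, and the motifs after the promoters had been seen. Genes of the family beyond these 8 are not analysed here. The text names the members, *Sirt6*, list genes with an unadjusted p under 0.05, fixed receptors, ligands and partners, and the 3 genes nearest in profile to each member that passed or did not overlap. Single markers were chosen after their values were seen. Exon overlaps and 50-base words come from GENCODE M21 (GRCm38, the assembly of mm10) and promoters from RefSeq (GRCm38.p6). Protein sequences were not used here. Some genes of the lists are not reported here by name.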

Additional observations from a re-analysis of the deposited data

How the results depend on the processing

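The count of 4 higher members was 2 under upper quartile scaling, scaling by library size only, the replicate block and both limma fits, and between 2 and 3 with a library left out (2 without WT 1 or without *Sirt6* cKO 1). *Irf4* and *Irf5* passed in all 12 alternatives, and the count of lower members was 0 with each library left out. The median log2 fold change of the members was 0.12 under upper quartile scaling and 0.11 under library size, which put the median of all genes at -0.086 and -0.093, and lay between 0.13 and 0.26 with a library left out. The 9 higher pathway genes became 4 under upper quartile scaling, 5 under library size, 3 with limma at a pseudocount of 1 and 2 at 0.1, and between 5 (without *Sirt6* cKO 1) and 8 with a library left out. The 6 lower became 10 under upper quartile scaling and 10 under library size, and between 3 (without *Sirt6* cKO 1) and 11 (without WT 2). Over all genes, calls at the unadjusted p were 61.4% higher in the edgeR fit, 48.4% under upper quartile scaling and 46.2% under library size. At an adjusted p, DESeq2 called 354 genes and edgeR 1.

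*Irf1* turned to -0.0027 with DESeq2, -0.071 under upper quartile scaling, -0.077 under library size and -0.0025 with both limma fits. With a library left out, the log2 fold change ran from -0.14 to 0.15 for *Irf1*, from -0.042 to 0.24 for *Ifnar1*, from -0.41 to 0.012 for *Ifngr1*, from -0.11 to 0.27 for *Stat2* and from -1.81 to 6.03 for *Ifnb1*, which had 30 counts or fewer. *Ifnb1* was also 1.04 under the replicate block and 0.29 with limma at 0.1. The cause was not tested. Replicate numbers are shared in name only (r = -0.05 between the WT and the *Sirt6* cKO replicate differences, over genes), and under the replicate block *Irf2* (unadjusted p = 0.0781 in edgeR) and *Irf8* (unadjusted p = 0.0505 in edgeR) no longer passed.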
